A study of Homo sapiens with 3 samples.

Results

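MHCC97L/DoxR (DoxR), a doxorubicin-resistant subline, was compared directly with MHCC97L/CisR (CisR), a cisplatin-resistant subline, across all genes that could be measured. Both were generated from MHCC97Low, a human cell line of metastatic hepatocellular carcinoma, and total RNA of each line was hybridised to 1 Affymetrix human expression array. The comparison used 2 of the 3 arrays of the study. The array of the parental line entered no difference, and its signal is given beside a gene only as a level for orientation. Per the labels, cells of every line were grown in DMEM with serum with no treatment, so neither drug was present as a treatment when RNA was taken. Drug doses, the length of selection and whether a subline is 1 clone are not given in the sources used here. With 1 array per subline the spread between cultures of a subline is unknown. Each value therefore describes these RNA samples, and the effect of drug selection and other differences between the sublines cannot be told apart.

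Cisplatin forms crosslinks in DNA, which cells remove mainly by nucleotide excision and recombination repair, and its entry and export have been linked to copper transporters. Doxorubicin is an anthracycline that traps topoisomerase II on DNA, is reduced by carbonyl reductases and is pumped out of cells by P-glycoprotein, the product of ABCB1. Liver cancer cells keep a varying part of the hepatocyte programme, which includes secreted plasma proteins, drug-metabolising enzymes and the liver transcription factors that drive them.

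A gene was represented by its brightest probe set, and a signal under 76.3, the median of all values of both arrays, was raised to that floor. At least 1 of the 2 values was above the floor for 12656 genes, which were compared, and both were for 11410. A difference of 2-fold or more was called, and a fold is written as "at least" when the lower signal was not above the floor. DoxR had 386 genes (3.05%) called higher and 416 (3.29%) called lower than CisR, together 6.34% of the genes compared. For 56 higher and 110 lower genes the lower signal was not above the floor. The difference reached 4-fold for 40 higher and 52 lower genes, and 8-fold for 9 and 15. The median log2 difference, taken as DoxR minus CisR throughout, was -0.01. Its SD by the median absolute deviation was 0.377 where both values were above the floor. When genes were split by signal into 3 equal groups, this SD was 0.477 for the dimmest and 0.307 for the brightest group, and 8.36% and 3.08% of those groups passed 2-fold, so a call in a dim gene stands closer to the scatter. Where a called gene had other measured probe sets, their median had the same sign in 174 of 179 genes called higher and in 162 of 175 called lower. The share over every gene with other measured probe sets was 69.3%. They reached 2-fold themselves for 69 and 52 genes. Probe sets of a gene share the RNA sample, so this describes the probes and not the cells.

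Signal was similarly distributed on the compared arrays, with a median of 79.2 in the CisR and 73.3 in the DoxR array. The ratio of 3′ to 5′ probe sets for ACTB was 1.51 and 1.53, and for GAPDH 0.975 and 1.02. Across 24 probe sets for poly-A spike-in RNA the median log2 difference was -0.41, and across 9 for hybridisation spike-ins it was 0.02. None of 34 ribosomal protein genes and none of 23 housekeeping genes was called, with medians of 0.06 and -0.01. Of the 5 epithelial markers KRT8, KRT18 and KRT19 were bright on both arrays, with signals between 12056 and 34849. CDH1 was above the floor too, while EPCAM was at or under it on both arrays. Of 8 fibroblast markers, COL1A2, COL3A1, PDGFRB and FAP were at or under the floor on both arrays, as were VWF, CDH5, TEK and CLDN5 among 6 endothelial markers. The fibroblast markers COL1A1, DCN, LUM and THY1 were above the floor on at least 1 array, with a summed signal of 3312 in CisR and 1497 in DoxR. So were the endothelial markers PECAM1 and KDR, with 1086 and 1017. No squamous marker and only CD3E and CD79A among the leukocyte markers were above the floor.

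**Figure D1:**
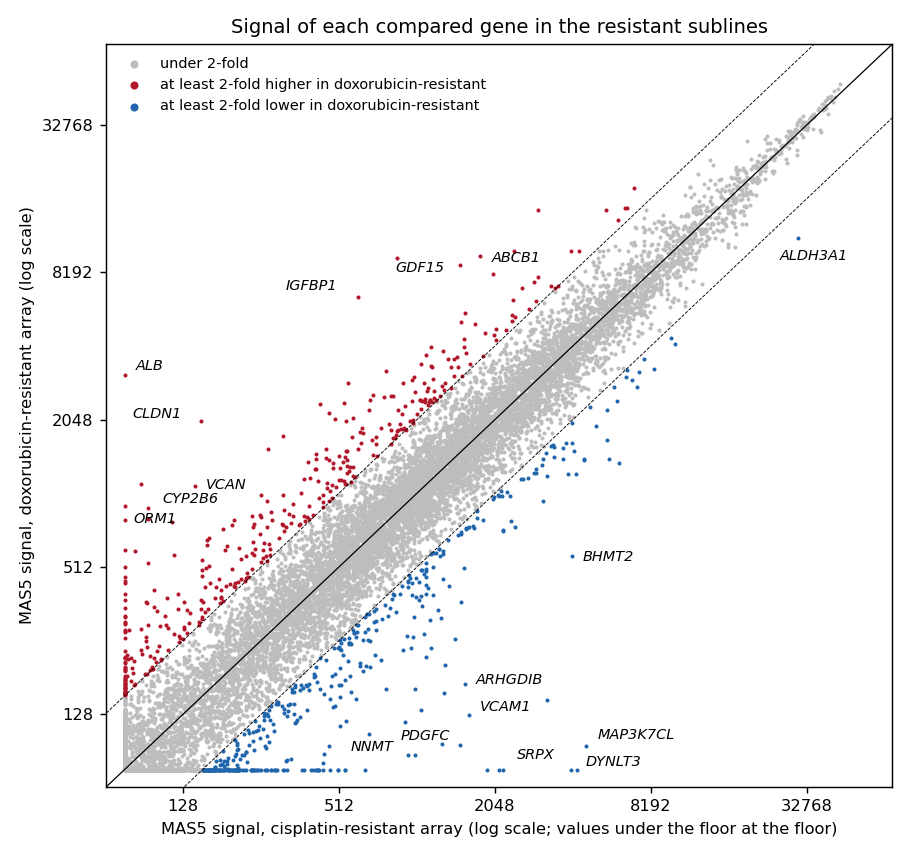
Signal of each of the 12656 compared genes in the cisplatin-resistant (horizontal) and doxorubicin-resistant (vertical) array, both on log scales, 1 point per gene, with values under the floor drawn at the floor. The solid line marks equal signal and the dashed lines a 2-fold difference; 386 genes lie above the upper and 416 below the lower dashed line, with ALB at the left edge and DYNLT3 and SRPX at the lower edge.

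Among genes with at least 2 probe sets above the floor on both arrays and all measured probe sets of 1 sign, VCAN, ONECUT2, CROT, EREG and ABCB1 stood furthest above the CisR level. VCAN encodes versican, a large matrix proteoglycan, and gave 142 in CisR and 1098 in DoxR, 7.73-fold higher, with 236 in the parental line. Its probe sets ranged from 0.68, with CisR or DoxR at the floor, to 2.95 on the log2 scale. ONECUT2, a liver transcription factor, gave 116 and 783 (6.74-fold), and EREG, which encodes the EGF receptor ligand epiregulin, gave 312 and 1761 (5.64-fold). CDH6, a cadherin, was 4.86-fold higher (118 and 574), the kinase gene STK26 4.66-fold (469 and 2187) and the mitochondrial co-chaperone gene DNAJC15 4.50-fold (534 and 2401). PHACTR4, a regulator of protein phosphatase and actin, was bright in both and 4.11-fold higher (2432 and 9985). FGF2, a fibroblast growth factor, was 3.99-fold higher (92.2 and 368).

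The same rule put ARHGDIB, BHMT2 and KCNMB4 furthest below the CisR level. ARHGDIB, a gene best known from blood cells, gave 1566 in the CisR, 171 in the DoxR and 1242 in the parental line, 9.16-fold lower, and its probe sets ranged from -3.20 to -2.54. RAC2, a GTPase gene of blood cells, was 3.29-fold lower (3125 and 949). BHMT2, a liver methyltransferase that makes methionine, gave 4050 in CisR, 568 in DoxR and 2542 in the parental line (7.13-fold lower). KCNMB4, a subunit of a calcium-activated potassium channel, was 4.81-fold lower (781 and 162), although its weakest probe set differed by at least 1.05-fold. SULT1A1, a phenol sulfotransferase, was 3.98-fold lower (5623 and 1413), the prostaglandin synthase gene PTGS1 3.50-fold (745 and 213) and RARRES1, a retinoic acid-responsive gene, 3.30-fold (5548 and 1682). Without probe sets that can match several transcripts SULT1A1 differed by -0.25 on the log2 scale. PTGS1 fell under 2-fold in 3 alternative ways of processing, with a weakest value of -0.40.

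Some genes were measured in 1 subline only. ALB, the albumin gene, gave 3115 in the DoxR and 3.17 in the CisR array, at least 40.8-fold higher, with 1545 in the parental line. The weakest of its 4 probe sets was at least 3.02-fold higher. ORM1, which encodes an acute-phase glycoprotein of the liver, was at least 11.9-fold higher (58.8 and 905). CNTNAP2 was at least 7.91-fold, NPNT at least 6.72-fold and ZNF423 at least 5.79-fold higher. In the other direction DYNLT3, a dynein light chain gene, gave 4244 in the CisR and 33.7 in the DoxR array, at least 55.6-fold lower. SRPX was at least 52.8-fold lower (4031 and 26.1), TSPAN7, a tetraspanin, at least 28.9-fold (2201 and 43.0), SYTL5 at least 27.7-fold (2114 and 22.3) and MID1IP1, a regulator of fatty acid synthesis, with a log2 difference of -4.64 or beyond (1908 and 17.3). These 5 genes lie in 1 stretch of the X chromosome, and the parental signals were 2900, 5012, 2235, 2045 and 2144, near those of the CisR subline. FMN2 was at least 8.50-fold lower (648 and 1.77) and SNCG at least 7.06-fold (539 and 23.3).

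Of the drug efflux genes, only ABCB1 and its neighbour ABCB4 were called. Of 16 compared ABC transporters and related pump genes, 2 were at least 2-fold higher and none lower, beside 3.05% and 3.29% of all genes compared. Their median was -0.04. ABCB1 gave 1801 in the CisR, 9499 in the DoxR and 897 in the parental array, 5.27-fold higher in the DoxR subline, and its other probe set was 5.21-fold higher. ABCB4, which encodes a phospholipid pump of bile canaliculi, gave 319 and 748 (2.34-fold). ABCB1 and ABCB4 lie in a stretch of chromosome 7 in which most genes were higher. Relative to the median of the 15 compared genes around each, ABCB1 was 1.09 higher and ABCB4 0.17 lower on the log2 scale. The other exporters of anticancer drugs lay within 2-fold. ABCC1 gave 4327 and 4238, ABCC2 2892 and 3353, ABCC3 6096 and 4637, and ABCG2 8872 and 7035, which are log2 differences of -0.03, 0.21, -0.39 and -0.33.

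Targets and carriers of both drugs showed few calls, and so did all genes compared, of which 6.34% were called. None of 9 topoisomerase and anthracycline target genes was called. TOP2A, the isoform of dividing cells, gave 5537 in the CisR and 3662 in the DoxR array (log2 difference -0.60), and TOP2B gave 2846 and 2380 (-0.26). TOP1 gave 3949 and 4772 (0.27), with another probe set at -0.66. None of 11 copper and platinum transport genes was called, with a median of 0.01. The importer SLC31A1 gave 1526 and 2163 (0.50), and the exporters ATP7A and ATP7B differed by 0.01 and -0.33. Of 7 metallothionein and regulator genes 1 was lower, MT1H, which at 234 and 52.5 was at least 3.06-fold lower. MT2A, MT1X and MT1G differed by 0.12, -0.06 and 0.09.

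Among 15 carbonyl and aldo-keto reductase genes, which can reduce anthracyclines, CBR3 was 2.17-fold lower (1753 and 808) and POR, the electron donor of cytochromes P450, 2.80-fold higher (1560 and 4370). Over all genes compared 3.05% were higher and 3.29% lower. POR was 0.88 above its neighbours on the log2 scale, which is under 2-fold. CBR1, NQO1, AKR1C1, AKR1C3 and AKR1B10 were bright in both and differed by -0.07, 0.06, -0.00, -0.06 and 0.13. Of 27 glutathione genes 1 was higher, CHAC1, and 2 were lower, GPX3 (3444 and 1607, 2.14-fold) and GSTT2 (605 and 296, 2.05-fold). GSTP1 differed by 0.16. Among 23 targets of NRF2, the regulator of the oxidative stress response, only the haem oxygenase gene HMOX1 was called, 3.57-fold higher at 1564 and 5584, while the parental array gave 9642.

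DNA repair lists were nearly level between the sublines, and 6.34% of all genes compared were called. In nucleotide and base excision repair 1 of 27 genes was called, XPC, which senses DNA damage and was 2.34-fold lower (1040 and 444). It lies in a stretch of lower genes on chromosome 3 and was 1.02 below its neighbours on the log2 scale. ERCC1 and XPA, parts of the incision machinery, differed by 0.14 and -0.01. None of 17 mismatch repair and translesion genes was called, with a median of -0.21. Of 35 genes of homologous recombination, the Fanconi pathway and end joining, XRCC4 was called, 2.14-fold higher (260 and 556).

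Genes of the unfolded protein response and its ATF4 branch were called in the higher direction alone. When misfolded protein collects in the endoplasmic reticulum or amino acids run short, kinases slow translation and the factor ATF4 switches on genes of amino acid supply, redox balance and cell death, while other sensors switch on chaperones of the endoplasmic reticulum. Of 36 compared members 15 were at least 2-fold higher in the DoxR subline, none was lower, and 34 had a difference above 0. The median was 0.73, against -0.01 over all genes compared, of which 3.05% were higher and 3.29% lower. The list was written with earlier results of these data known, and its count describes these arrays.

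The called members included regulators, targets and enzymes. CHAC1, which degrades glutathione, gave 202 in the CisR, 795 in the DoxR and 324 in the parental array (3.93-fold higher). DDIT3, the cell death regulator also called CHOP, gave 1520, 5136 and 1867 in that order (3.38-fold), and STC2, a secreted stanniocalcin, 271, 954 and 371 (3.52-fold). SESN2, a stress-induced inhibitor of growth signalling, was 3.24-fold higher (310 and 1004), and VLDLR, a lipoprotein receptor, 3.12-fold (239 and 745). In each of these genes the DoxR array was the highest of the 3 and the CisR array the lowest. The transcription factors ATF5, CEBPG and ATF3 were 3.01-fold, 2.63-fold and 2.59-fold higher, the pseudokinase gene TRIB3 2.57-fold and the phosphatase subunit gene PPP1R15A 2.66-fold. NUPR1 was 2.94-fold higher (1720 and 5054) with a parental level of 4568. ERN1, a sensor of misfolded protein, was 3.10-fold higher, but its probe sets ranged from -0.19 to 1.63. The asparagine and serine synthesis genes ASNS and PHGDH were 2.29-fold and 2.02-fold higher, and CTH, a cysteine synthesis gene outside this list, 3.71-fold (545 and 2024).

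Chaperones of the endoplasmic reticulum lay lower within the list. This division was made after the values were seen. HSPA5, the main chaperone, gave 8447 and 12984 (log2 difference 0.62), and HSP90B1, CALR, PDIA6 and CRELD2 differed by 0.47, 0.53, 0.23 and 0.14. PDIA4 was the only one called, at 2.00-fold. It lies in another stretch of higher genes on chromosome 7 than ABCB1, from SSBP1 to LINC00689, and was 0.29 above its neighbours. ATF4 itself differed by 0.50 (11711 and 16556), XBP1 by 0.19 and ATF6 by -0.08.

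Promoters of some of these members are shown because they carry the letters through which the branches are known to be read. In the 250 bases before to 50 after each start site listed in RefSeq (GRCh38.p14), the letters TGATGNAA, the core of the element bound by ATF4 and its partners, were searched on both strands. They occurred in 3.62% of 35116 promoters, in 2.92% of the compared genes with a promoter listed and in 6 of the 33 members with one. These were ATF3, CHAC1, ASNS and CEBPG, all called higher, and HERPUD1 and SLC3A2, which differed by 0.60 and 0.75. Of the 14 members with a promoter listed that were called higher, only these 4 had the letters. The ER stress element, searched as CCAAT and CCACG with 9 bases between them, occurred in 0.0769% of promoters, in 0.156% of the compared genes and in XBP1, HSPA5, HSP90B1, PDIA6, CALR and CRELD2, none of which was called. The lines give the bases around the match, on the strand of the gene, with the match in capitals.
CHAC1, chr15:40953232-40953299, plus strand: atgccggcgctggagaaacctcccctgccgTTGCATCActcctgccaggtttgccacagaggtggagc
ATF3, chr1:212565186-212565253, plus strand: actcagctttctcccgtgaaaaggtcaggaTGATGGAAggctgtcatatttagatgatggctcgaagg
ASNS, chr7:97872439-97872506, minus strand: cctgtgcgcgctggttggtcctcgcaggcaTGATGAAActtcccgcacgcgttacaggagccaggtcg
CEBPG, chr19:33374041-33374108, plus strand: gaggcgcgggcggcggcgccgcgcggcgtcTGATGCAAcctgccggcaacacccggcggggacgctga
HSPA5, chr9:125241361-125241439, minus strand: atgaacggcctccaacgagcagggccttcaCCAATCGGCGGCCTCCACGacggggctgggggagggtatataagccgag
The match of CHAC1 lies on the other strand than the gene. A match is a description of letters, and binding was not measured.

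**Figure D2:**
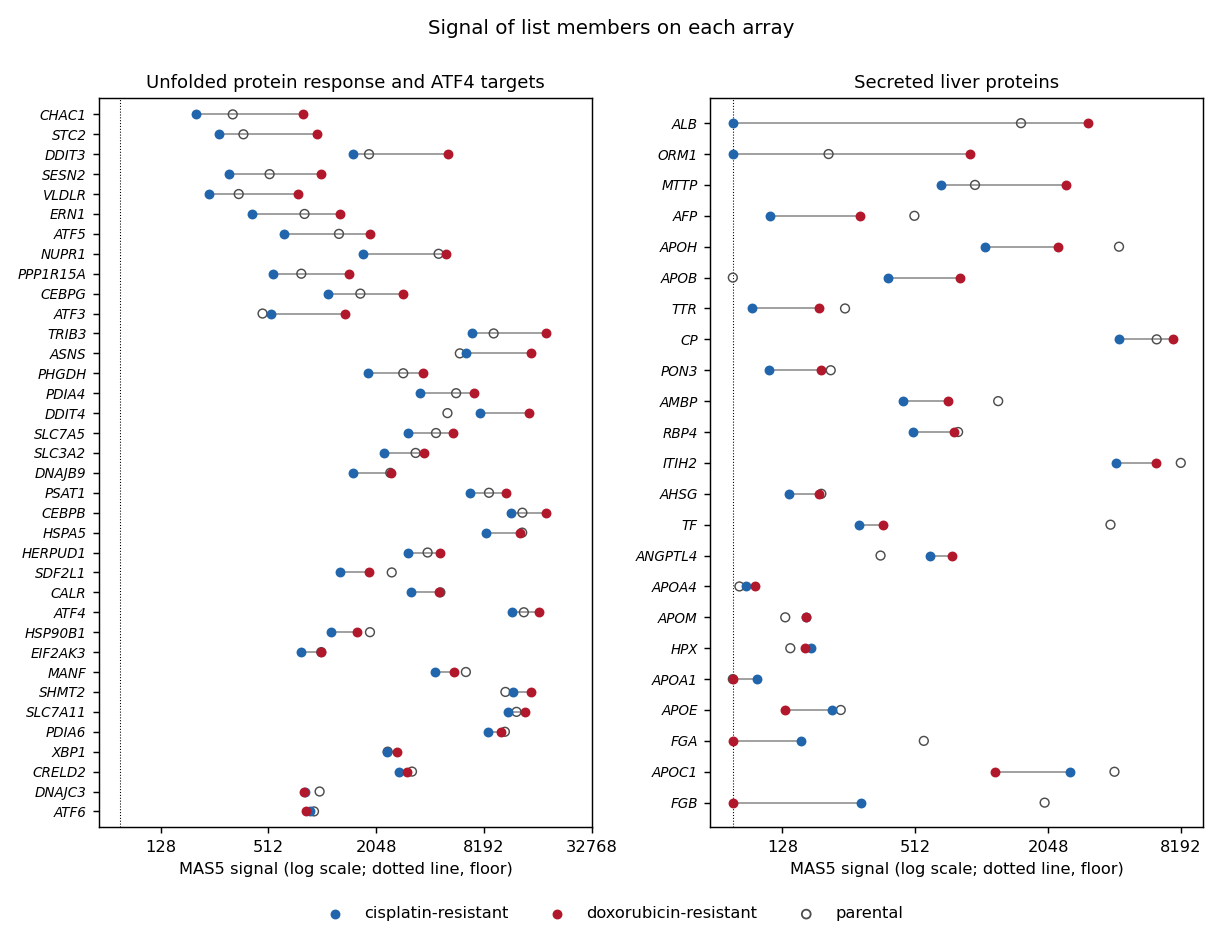
MAS5 signal (log scale) of each compared member of the unfolded protein response and ATF4 list (36 genes) and of the secreted liver protein list (23 genes) in the cisplatin-resistant, doxorubicin-resistant and parental array, 1 array each, with lines joining the resistant sublines and values under the floor drawn at the floor. In the left panel 34 of 36 genes lie to the right in the doxorubicin-resistant array, while in the right panel ALB and ORM1 lie far to the right and FGB and FGA at the floor.

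Growth arrest and cell death genes gave a mixed picture. Of 30 compared p53 targets, 4 were higher and 2 lower, beside 3.05% and 3.29% of all genes compared. These targets stand here for the DNA damage response, and their median was 0.02. GDF15, a stress cytokine, gave 1501 in the CisR, 8742 in the DoxR and 2667 in the parental array (5.83-fold higher), and its probe sets ranged from 0.49, with CisR or DoxR at the floor, to 2.54. The cell cycle inhibitor gene CDKN1A was 2.32-fold higher (391 and 908), SESN2 3.24-fold and PMAIP1, which encodes the death protein NOXA, 3.04-fold (978 and 2978). PMAIP1 lies in the chromosome 18 stretch and was 0.88 above its neighbours. The kinase gene PLK2 was 3.01-fold lower (1184 and 394) besides XPC, and MDM2, a ubiquitin ligase gene, differed by -0.45. BAX and TNFRSF10B differed by 0.52 and 0.02. In the BCL2 family only PMAIP1 of 16 genes was called, and the survival genes BCL2L1 and MCL1 differed by 0.59 and -0.24. Of 29 caspase, inhibitor and death receptor genes 1 was called, the decoy receptor gene TNFRSF10D, 2.01-fold lower, and the median was -0.26.

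Plasma proteins made by hepatocytes were called in both directions. Of 23 compared secreted liver proteins 7 were higher and 3 lower, beside 3.05% and 3.29% of all genes compared. The median of the list was 0.61, and 15 more members were at or under the floor on both arrays. Besides ALB and ORM1, MTTP, which loads lipid onto lipoproteins, was 3.67-fold higher (672 and 2468). AFP, the fetal albumin-like protein used as a liver cancer marker, was 2.58-fold higher (112 and 289), with 508 in the parental array. APOH, APOB and TTR were 2.13-fold, 2.12-fold and 2.02-fold higher. Without probe sets that can match several transcripts APOH differed by 0.04. APOB gave 386 and 816, and 42.0 in the parental array. Fibrinogen went the other way, with FGB at least 3.82-fold lower (291 and 49.6) and FGA at least 2.04-fold lower (155 and 7.70). The parental levels were 1977 and 560, so both sublines lay below the parental line. APOC1 was 2.19-fold lower (2573 and 1174), and transferrin (TF) gave 285 and 367 against 3931 in the parental array. Of the 9 hepatocyte markers 6 were higher and 1 lower, and their summed signal was 2608 in the CisR and 7786 in the DoxR array, which includes the change of ALB. With the median over probe sets 3 of 8 markers were higher and 1 lower. Without probe sets that can match several transcripts 2 of 5 were higher and 1 lower.

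Coagulation, complement and serpin genes were also called in both directions, with 4 higher and 3 lower of 33 and a median of 0.00. Over all genes compared 3.05% were higher and 3.29% lower. SERPINA6, the cortisol carrier of plasma, was 7.11-fold higher (84.0 and 597), SERPINA1, antitrypsin, 2.30-fold (276 and 636) and F5 and F7 2.20-fold and 2.05-fold. The complement inhibitor gene CFI was 3.89-fold lower (324 and 83.4), SERPINF1 3.06-fold (1554 and 507) and PLAT at least 2.71-fold (207 and 44.5). Among 25 liver-enriched transcription factors, ONECUT2, NR0B2 (at least 2.06-fold) and CEBPA (1382 and 2765, 2.00-fold) were higher and GATA3 was lower (4058 and 1637, 2.48-fold). FOXA1, FOXA2, GATA4 and GATA6 differed by 0.13, -0.04, 0.51 and 0.48. None of 16 other genes of hepatocyte metabolism was higher, and BHMT2, the glutamine synthetase gene GLUL (6950 and 2981, 2.33-fold) and the gluconeogenic gene FBP1 (523 and 250, 2.10-fold) were lower. GLUL was under 2-fold with the median over probe sets and without probe sets that can match several transcripts.

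Drug-metabolising enzymes held a few large differences. In 22 cytochrome P450 and xenobiotic receptor genes 3 were higher and 2 lower, beside 3.05% and 3.29% of all genes compared. CYP2B6, which activates cyclophosphamide among other drugs, was 9.44-fold higher (94.3 and 889), and CYP24A1, which degrades vitamin D, 4.15-fold (781 and 3239). The parental levels of both, 550 and 5135, were above the CisR level. CYP4F11 was 2.02-fold lower. CYP2A6 was called lower at a low signal, at least 2.11-fold, but its probe sets disagreed, ranging from -1.08 to 0.33. NNMT, which methylates nicotinamide, gave 946 in the CisR, 87.4 in the DoxR and 63.4 in the parental array, 10.8-fold lower. Here the DoxR and parental levels lay together. The aldehyde dehydrogenase gene ALDH3A1 was bright and 2.68-fold lower (30222 and 11266), near the parental level of 9800. Among the 25 genes of methionine, serine and NAD metabolism SHMT1 (2.89-fold) and QPRT (2.80-fold) were lower too, while CTH and PHGDH were higher.

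**Figure D3:**
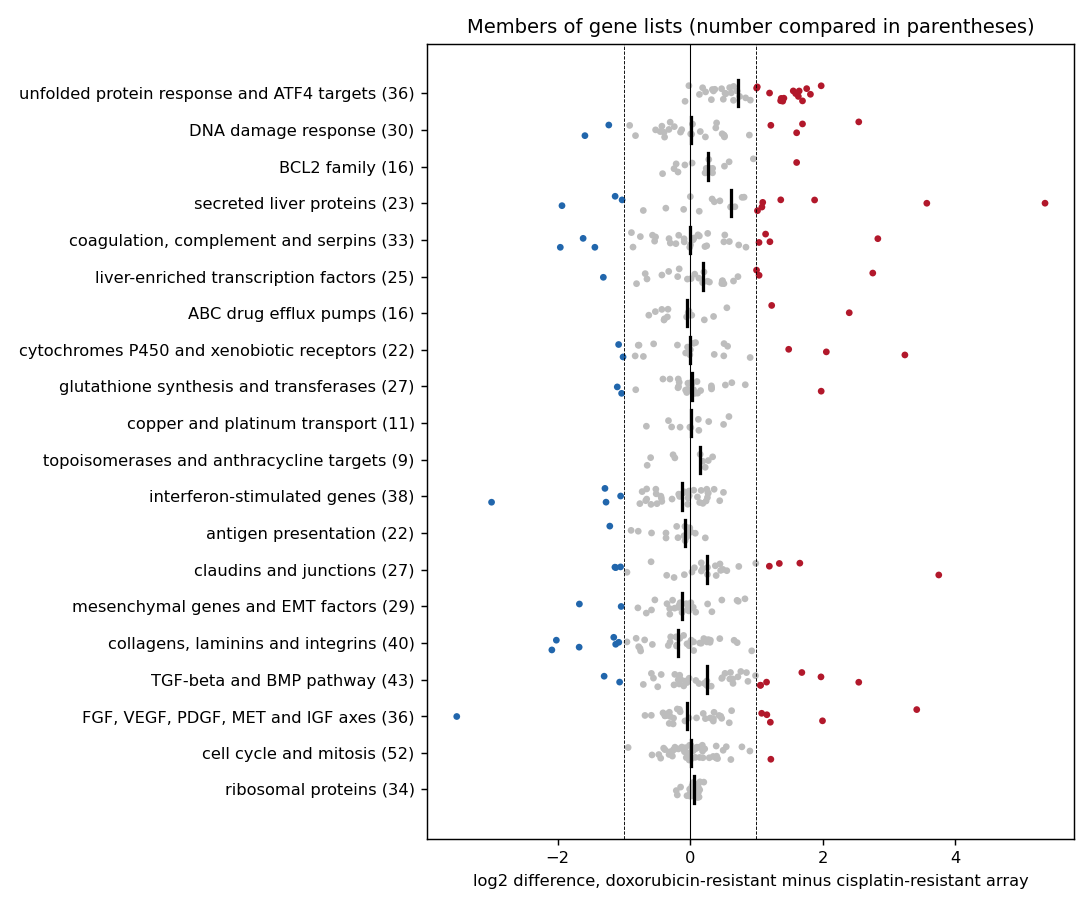
Log2 difference, doxorubicin-resistant minus cisplatin-resistant array, of each compared member of 20 gene lists, 1 point per gene, with the number of genes in parentheses and the median as a black bar. Dashed lines mark 2-fold; the unfolded protein response list has its median at 0.73 with 15 genes past the upper line, and copper transport and topoisomerase genes stay between the lines.

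Interferon-stimulated genes, which cells switch on against viruses and which have also been tied to DNA damage, held 4 lower and no higher genes among 38. Over all genes compared 3.29% were lower and 3.05% higher. The median of the list was -0.13. IFI27 gave 1061 in the CisR, 133 in the DoxR and 208 in the parental array (7.98-fold lower). DDX60, an RNA helicase gene, was 2.44-fold lower (423 and 173) with 178 in the parental array, IFI6 2.41-fold (231 and 95.7) with 203, and IFI44 at least 2.07-fold (158 and 33.2) with 36.4. ISG15, OAS1, IFIT3 and IFITM3 lay close to level, at -0.16, -0.09, -0.02 and 0.17, and RIGI differed by 0.45. Of 22 antigen presentation genes HLA-DMB was called, 2.32-fold lower (205 and 88.3).

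The promoters of called interferon-stimulated genes are shown for the same reason. The core repeat of the interferon response element, GAAA and GAAA with 2 bases between them, occurred on either strand in 3.57% of all promoters, in 3.90% of the compared genes with a promoter listed and in 21 of 31 members with a promoter listed, the 4 called genes among them. The median difference was -0.16 in members with the letters and -0.06 in those without.
IFI27, chr14:94110598-94110680, plus strand: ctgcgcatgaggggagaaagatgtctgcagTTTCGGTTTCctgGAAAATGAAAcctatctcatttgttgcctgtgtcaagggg
IFI6, chr1:27672246-27672378, minus strand: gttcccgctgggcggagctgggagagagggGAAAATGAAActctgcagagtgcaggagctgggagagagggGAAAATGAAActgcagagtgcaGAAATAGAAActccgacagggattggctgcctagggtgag
DDX60, chr4:168318766-168318870, minus strand: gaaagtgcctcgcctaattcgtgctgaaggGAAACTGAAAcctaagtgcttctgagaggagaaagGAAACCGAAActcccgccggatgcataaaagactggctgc
Capitals mark the matches, of which IFI27 has 2, IFI6 3 and DDX60 2. They are also in promoters of members that were level, such as ISG15 and IFITM3.

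Inflammatory genes differed in single members. VCAM1, an adhesion molecule for leukocytes, gave 1629 and 128 (12.7-fold lower), with 1104 in the parental array. The cyclooxygenase gene PTGS2 was 3.59-fold lower (568 and 158) and the chemokine gene CXCL5 2.84-fold (1293 and 456), whereas the chemokine gene CCL20 was 5.49-fold higher (433 and 2377). The other 30 of 34 cytokine and NF-kB genes lay within 2-fold, and 6.34% of all genes compared were called.

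Tight junction genes included the largest difference above the floor among higher genes. CLDN1, a claudin that seals the space between epithelial cells, gave 150 in the CisR, 2018 in the DoxR and 367 in the parental array, 13.4-fold higher, and its other probe set was at least 2.62-fold higher. CLDN4 was 3.15-fold higher (814 and 2563), CLDN7 2.54-fold (552 and 1401) and OCLN, occludin, 2.29-fold (815 and 1864). For CLDN4, CLDN7 and OCLN the CisR array was near the parental levels of 709, 502 and 819. CLDN4 lies in the chromosome 7 stretch and was 0.66 above its neighbours. In the same list of 27 genes CXADR, a junctional virus receptor, was 2.20-fold lower (2274 and 1035), CLDN11 2.17-fold and TJP3 2.07-fold. The cadherin genes called higher, 4 of 15 compared, were CDH6, CDH17 (2.60-fold), CDHR2 (2.26-fold) and PCDH1 (2.04-fold), and PCDH7 was 3.74-fold lower (992 and 266). Among all genes compared 3.05% were higher and 3.29% lower. E-cadherin, CDH1, gave 1708 and 3062, a log2 difference of 0.84, with 798 in the parental array. Epithelial keratin and villus genes split evenly, 3 higher and 3 lower of 25, with KRT7 3.30-fold higher (254 and 838) and MUC1 2.94-fold lower. Neither was past 2-fold with the median over probe sets, where KRT7 differed by 0.22 and MUC1 by -0.60.

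Of 29 mesenchymal genes 2 were lower and none higher, near the share of 3.29% lower and 3.05% higher among all genes compared. VIM, the vimentin filament gene, was 3.18-fold lower (1362 and 428) with 493 in the parental array, and differed by -0.84 with the median over probe sets. It lies in a stretch of lower genes on chromosome 10 and was 1.10 below its neighbours. Of 40 collagen, laminin and integrin genes 6 were lower and none higher, with a median of -0.18. Relative to their neighbours 4 were lower, and the median was 0.05. The chains of collagen VI were lower together, COL6A3 4.05-fold (597 and 147), COL6A2 3.19-fold (4499 and 1409) and COL6A1 2.22-fold (9812 and 4413). COL6A1 and COL6A2 lie in a stretch of lower genes on chromosome 21 and were 0.54 and 1.06 below their neighbours. COL4A5 was at least 4.25-fold, COL5A2 2.18-fold and COL1A1 2.11-fold lower. The proteoglycan gene LUM was 2.26-fold lower (2632 and 1167) with 258 in the parental array, but its other probe set differed by -0.08 and the call was lost with the median over probe sets. HAS2, a hyaluronan synthase gene, was at least 3.55-fold lower, while VCAN was higher. The protease gene MMP2 was at least 4.92-fold lower (375 and 63.0) and MMP1 was 3.20-fold higher (158 and 505). Of the 8 fibroblast markers 4 were above the floor on at least 1 array, 2 of them, LUM and COL1A1, were called lower, and their summed signal was 3312 in the CisR and 1497 in the DoxR array. The part of other cells in these differences was not tested.

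**Figure D4:**
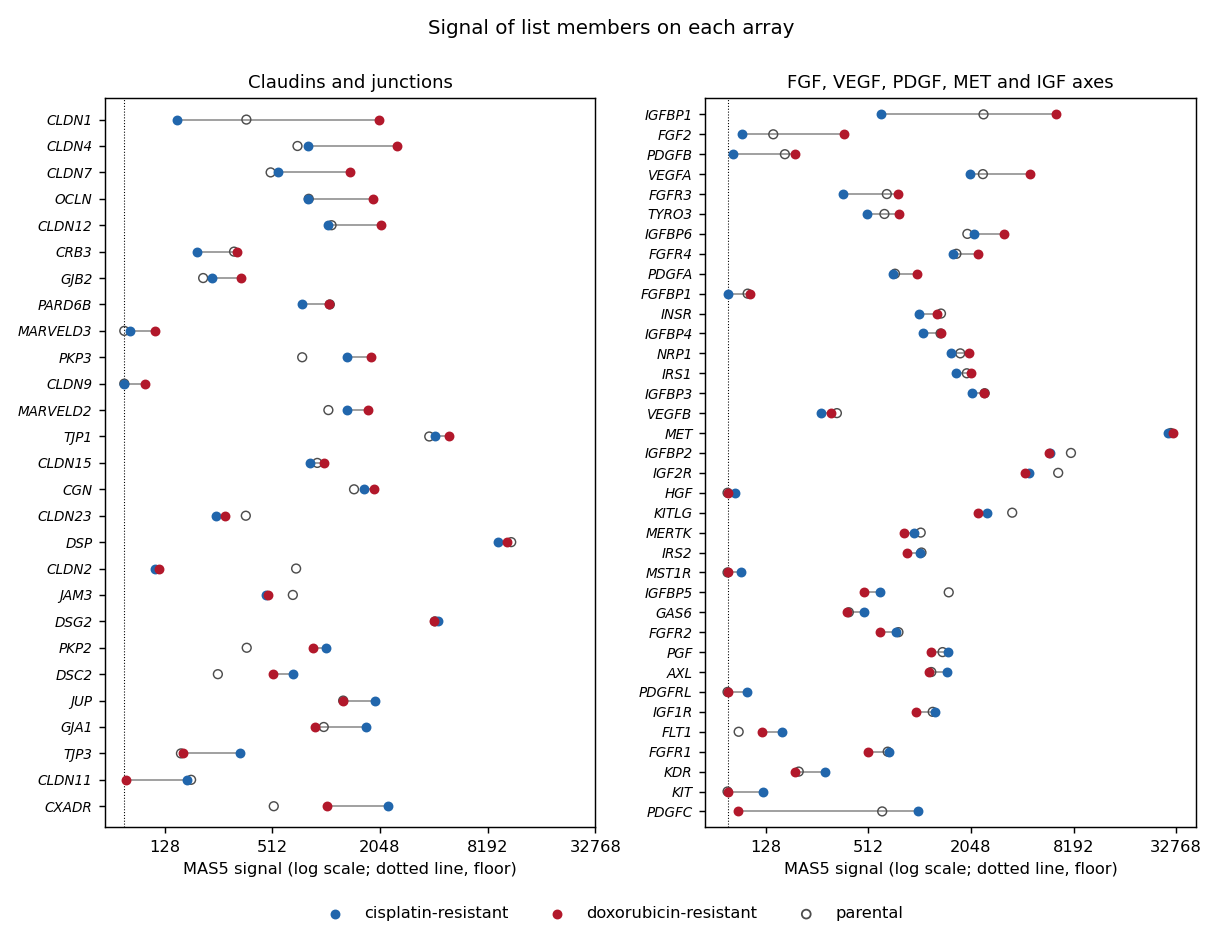
MAS5 signal (log scale) of each compared member of the claudin and junction list (27 genes) and of the growth factor list (36 genes) in the cisplatin-resistant, doxorubicin-resistant and parental array, 1 array each. CLDN1 and IGFBP1 show the widest gaps to the right in the doxorubicin-resistant array, and PDGFC the widest gap to the left.

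Growth factors and binding proteins showed differences in both directions. IGFBP1, a liver-secreted binding protein of insulin-like growth factors, gave 608 in the CisR, 6495 in the DoxR and 2427 in the parental array (10.7-fold higher). FGF2, PDGFB (2.31-fold), VEGFA (2031 and 4526, 2.23-fold) and the receptor gene FGFR3 were also among the 5 higher of 36 genes. Among all genes compared 3.05% were higher and 3.29% lower. PDGFC gave 1006 and 87.7, 11.5-fold lower, although its weakest probe set differed by at least 1.63-fold. Among EGF family genes the ligands EREG and TGFA (151 and 469, 3.10-fold) were higher, and the ligands NRG1 (3.07-fold) and EGF (2.21-fold) and the receptor inhibitor gene LRIG1 (2.05-fold) were lower, of 14. NRG1 was under 2-fold with the median over probe sets and without probe sets that can match several transcripts, with a weakest value of -0.43. TGFA was under 2-fold with the median over probe sets. MAP3K7CL, a gene with partial likeness to a signalling kinase, had the widest gap of all genes with both values above the floor, at 4614 and 95.0 (48.6-fold lower). It was near the floor in the DoxR and under it in the parental array (47.8), and it has 1 probe set.

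In the TGF-beta and BMP pathway 6 of 43 genes were higher and 2 lower, beside 3.05% and 3.29% of all genes compared. The median was 0.25. The ligand genes GDF15 and INHBE (at least 3.92-fold) and the BMP target ID2 (2769 and 5772, 2.08-fold) were higher, and so were SMAD7, SMAD4 and SMAD2. These signal transducers gave 187 and 600, 522 and 1160, and 825 and 1721 in the CisR and DoxR array. All 3 lie in the chromosome 18 stretch, and above their neighbours they stood by 1.05, 0.43 and 0.55. SMAD4 was also under 2-fold with the median over probe sets and without probe sets that can match several transcripts. BMP4 was 2.46-fold lower (794 and 323) and the co-receptor gene TGFBR3 2.09-fold.

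Most other lists held few calls, beside 3.05% called higher and 3.29% called lower of all genes compared. Of 52 cell cycle genes only CDKN1A was called, with a median of 0.01, and of 31 respiratory chain genes only UCP2, 2.26-fold lower. Among 39 glycolysis and hypoxia genes VEGFA and CA2 (2.32-fold) were higher and none was lower. Fatty acid and lipid genes had a median of -0.31 with 32 of 42 below 0, but only MID1IP1, ACSS3 (at least 6.64-fold) and CPT1C (at least 2.95-fold) were called lower, and ACSS1 was higher (2.01-fold). FASN and SCD, which make and desaturate fatty acids, differed by -0.50 and -0.43. Of 12 MAGE and other cancer-testis antigen genes 4 were lower, MAGEA1 (at least 5.34-fold), MAGEA12 (3.87-fold), MAGEB2 (3.07-fold) and MAGEA6 (2.60-fold), and MAGEC2 was 3.97-fold higher (159 and 630). The surface marker genes CD24 and ANPEP were 2.67-fold (5515 and 14747) and 3.41-fold (455 and 1552) higher.

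Called genes lay partly in long stretches of neighbouring genes. Where the median of 15 consecutive compared genes reached 0.5 in size on the log2 scale, windows were joined, which gave 29 stretches on 11 chromosomes, 9 higher and 20 lower. They hold 9.51% of the compared genes, but 31.1% of the higher and 27.9% of the lower calls. The longest lies on chromosome 7 from NIPSNAP2 to SGCE. Its 123 genes had a median of 0.74, 86.2% were above 0 and 41 were at least 2-fold higher. Besides ABCB1 they include TMEM243 (3002 and 14645, 4.88-fold), CROT, a peroxisomal acyl transferase gene (272 and 1556, 5.72-fold), DBF4, a regulator of DNA replication (2020 and 8080), SLC25A40 (1066 and 3450, 3.24-fold) and BAZ1B (3.47-fold). BAZ1B was under 2-fold with the median over probe sets and without probe sets that can match several transcripts. A further stretch from SSBP1 to LINC00689 on the same chromosome held 83 genes with a median of 0.56.

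Chromosome 18 was higher over most of its length. Of its 176 compared genes 38 (21.6%) were higher and 1 lower, with a median of 0.54. The stretch from USP14 to ESCO1 held 51 genes with a median of 0.61, and that from MOCOS to HSBP1L1 held 79 genes with a median of 0.72 and 29 higher genes. These include ONECUT2, the ubiquitin ligase gene NEDD4L (578 and 2082, 3.60-fold), ATP8B1, a lipid flippase gene of bile canaliculi (1107 and 3748, 3.39-fold), and SKA1 (3.48-fold). The parental levels of NEDD4L, PHLPP1, SMAD7 and PMAIP1, at 1704, 462, 575 and 2711, were close to the DoxR levels of 2082, 497, 600 and 2978.

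On the X chromosome stretches of opposite sign overlapped at their ends, so some genes are counted in both. From PDK3 to GPR34 the median was -0.28 over 24 genes, of which 66.7% were below 0. In this stretch 8 genes were called lower, with DYNLT3, SRPX, TSPAN7, SYTL5 and MID1IP1 at or under the floor in the DoxR array. From ATP6AP2 to HSD17B10 it was 0.63 over 72 genes with 16 higher, among them GSPT2 (573 and 1739, 3.03-fold) and WDR45 (1346 and 3611, 2.68-fold), for which the parental levels were 2179 and 3944. The stretch up to CAPN7 at the start of chromosome 3 held 70 genes with a median of -0.80 and 27 lower genes, including SUMF1 (4193 and 1231, 3.41-fold), CIDEC (3915 and 1228, 3.19-fold) and the autophagy gene ATG7 (1075 and 356, 3.02-fold). On chromosome 10, from SFMBT2 to ZNF438, 73 genes had a median of -0.56 and 10 were lower. Chromosome 1 held 8 lower stretches and chromosome 21 held 3, and 78.3% of the 138 genes of chromosome 21 were below 0. DNA copy number was not measured here, and its part in these stretches was not tested.

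**Figure D5:**
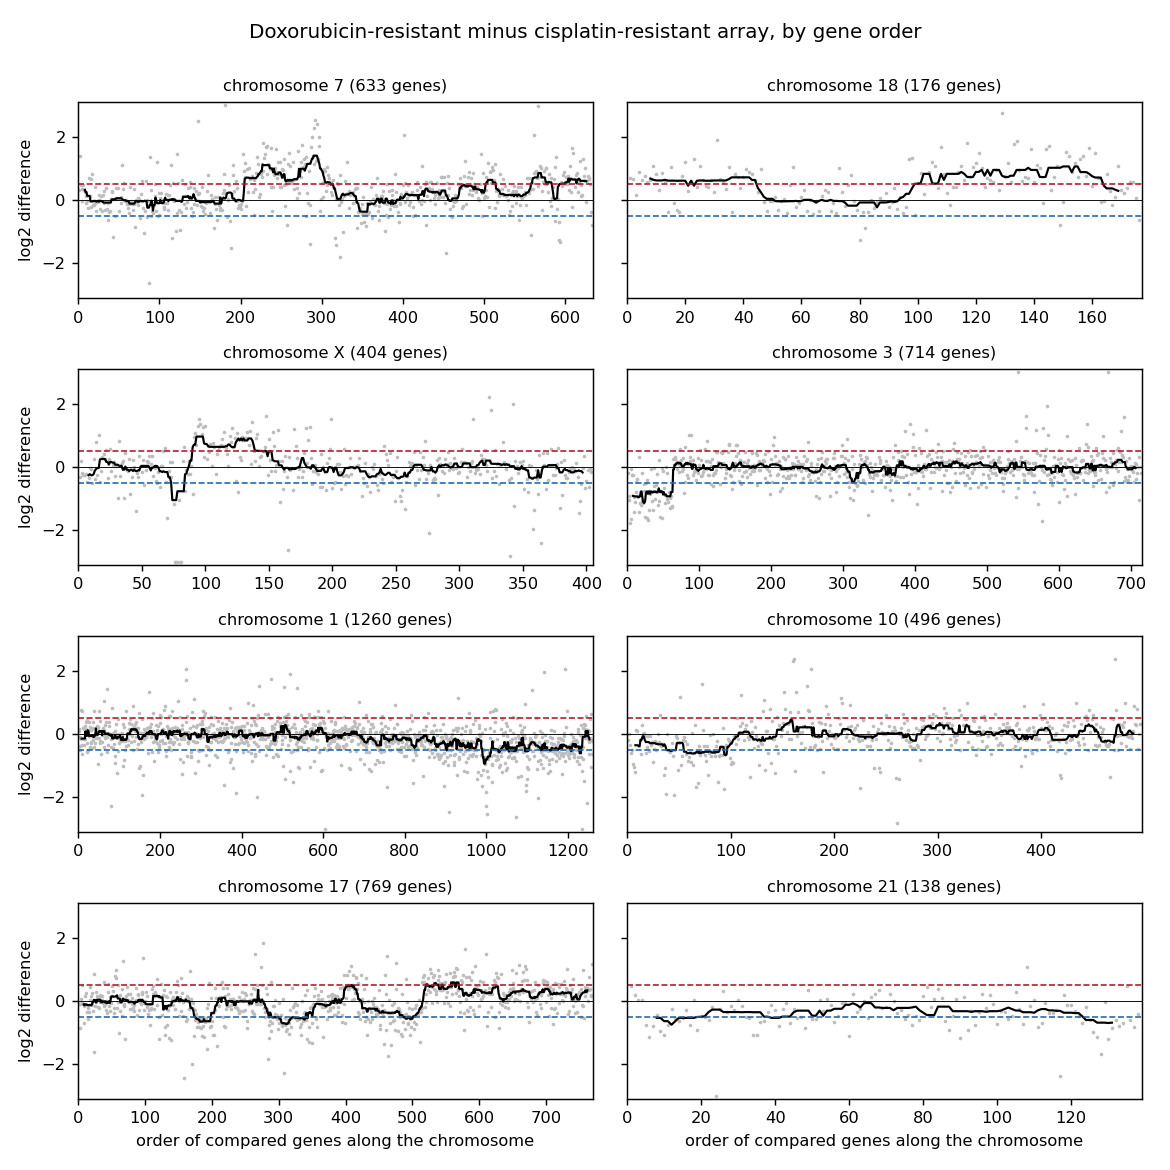
Log2 difference, doxorubicin-resistant minus cisplatin-resistant array, of compared genes in their order along 8 chromosomes, 1 grey point per gene (values past 3 in size drawn at 3), with the running median of 15 genes as a black line and dashed lines at 0.5 and -0.5. The line lies above the upper dashed line over long parts of chromosomes 7, 18 and X and below the lower one at the start of chromosome 3.

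Of the called members of the gene lists, 12 of 78 higher and 15 of 75 lower ones lay in these stretches. When the median of neighbouring genes was subtracted from each gene, 302 genes were at least 2-fold higher and 342 lower, of which 244 and 295 were also called without it. The unfolded protein response list then had 14 of 36 members higher and a median of 0.72.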

How the data were processed

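The values are MAS5 intensity (signal) per probe set on a linear scale, as deposited by the authors; MAS5 is named, without a version, in the submitters' processing notes. With 2% of values trimmed at each end, the mean of each array came to 500.1. MAS5 subtracts mismatch signal, which makes low values noisy. Of 54675 probe sets, 41097 had 1 gene symbol, and 41043 of these (99.9%) matched RefSeq (GRCh38.p14) by Entrez identifier. They stand for 19775 genes. No value column was left unmapped.

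Log2 differences were computed with Python 3.11.15, pandas 2.3.3 and numpy 2.4.6 after the floor was applied, and figures with matplotlib 3.10.9. The steps were tested on simulated arrays. No p-value, SE or set test was computed, since each line has 1 array, and that number limits the precision. The members and the 53 gene lists (1809 members, 1646 on the array under 1 symbol, 1268 compared; 70 compared genes are in several lists) and 6 marker lists were chosen with earlier results of these data known.

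Genes were named by a rule: in each direction, the top 20 by size among genes above the floor in at least 2 probe sets of 1 sign and the top 10 by bound, up to 5 called members of each list, up to 5 genes of each stretch, and 25 drug, repair and lineage genes whatever their value. A few that met the rule go unnamed. Further list members were named after their values were seen. The alternatives changed the floor, the probe set, the scaling and the regional level. Genes with no probe set of 1 symbol were not used here.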

Additional observations from a re-analysis of the deposited data

How the results depend on the processing

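The counts moved most with the floor. With the floor at the 25th percentile 967 genes were higher and 1259 lower, and at the 75th percentile 184 and 137, so 57.3% of calls were higher in place of 48.1%. Under the other alternatives (floor and probe sets from all 3 arrays, an offset of 32 without a floor, the median over probe sets, probe sets that can match several transcripts left out, quantile normalization, centring, neighbours subtracted) the counts lay between 274 and 410 higher and between 278 and 496 lower. Of the 248 called genes among the 305 named by the rule, 93 stayed past 2-fold in every alternative that gave a value, 154 were under it in at least 1 and 4 turned sign. The turned values were those of CYP2A6 and SETMAR with the median over probe sets (0.10 and 0.43), of CYP2A6, SETMAR and KDM5B without probe sets that can match several transcripts (0.27, 0.43 and 0.20), and of ABCB4 with neighbours subtracted (-0.17). For CYP2A6, SETMAR and KDM5B other probe sets differed in sign, while ABCB4 turned against the level of its neighbours. The cause was not tested. The unfolded protein response list kept 12 to 15 higher members, or 9 of 24 without the less specific probe sets, and no lower member in any alternative. Secreted liver proteins held 4 to 9 higher and 1 to 6 lower members. No paired analysis was possible because each line had 1 array. Signal near the floor limits dim genes, where a 2-fold difference is more common.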

Other observations

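Some genes past 8-fold fall outside the rule for named genes, mostly because 1 probe set measured them, and were chosen after their values were seen. TM4SF4, a membrane protein gene of liver and intestine, gave 857 in the CisR, 9360 in the DoxR and 1448 in the parental array, 10.9-fold higher in the DoxR than in the CisR subline. PTGIS, the prostacyclin synthase gene, gave 88.5 and 1116 (12.6-fold higher), with 247 in the parental array, and its weakest probe set was at least 1.03-fold higher. BHLHE41, a transcription factor gene of the circadian clock, gave 93.9 and 807 (8.59-fold higher), with 94.3 in the parental array.

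Lower genes of this kind were BPIFB1, which encodes a secreted protein of airway and mucosal surfaces, at 3258 and 147 (22.1-fold lower) with 550 in the parental array, and the long non-coding RNA LINC00326 at 1506 and 96.3 (15.6-fold lower) with 257. GASK1B gave 1277 and 97.3 (13.1-fold lower), with 1361 in the parental array, and its weakest probe set differed by at least 1.02-fold. NMU, the gene of the peptide neuromedin U, gave 1301 and 157 (8.28-fold lower), with 324 in the parental array. BPIFB1, LINC00326 and NMU were thus highest in the CisR array, and TM4SF4, PTGIS and BHLHE41 in the DoxR array.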
